A study of Mus musculus with 26 samples.

Results

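Macrophages are the main resident immune cells of the mouse testis, and antigen presentation is the display of peptides on major histocompatibility complex (MHC) proteins. The 32 genes described here mark macrophages or take part in antigen presentation, and were taken by gene symbol from the deposited table of 51124 genes of whole-testis RNA. All 32 were found and all 32 passed the filter on low values, among 23782 genes that did. They comprise *Csf1* and its receptor (2 genes), complement C1q (3), surface and lysosomal proteins of macrophages (9), an Fc receptor and signalling adaptors (3), genes of monocyte recruitment and adhesion (3), genes of all leukocytes (2), and genes of MHC class II (6) and MHC class I (4) presentation.

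The study placed binding sites for piR-A, a piRNA that pachytene spermatocytes make in large amounts, into the 3′UTR of the RNA helicase gene *Ythdc2*, to follow slicing of a target RNA by the PIWI proteins MILI and MIWI. Testis RNA was sequenced for 3 genotypes. WT mice carry no insertion, *10xPerf* mice carry 10 sites fully complementary to piR-A, and *10xBulge* mice carry 10 sites mismatched to piR-A nucleotides 10 and 11, the positions that flank the cleavage site. The lines were made with Cas9 in B6D2F1/J hybrid embryos and kept by crossing homozygous animals, and each of the 6 libraries came from a different adult mouse (WT mice for N1 and N2, *10xPerf* mice for N3 and N4, *10xBulge* mice for N5 and N6). The other samples of the series, of RNA bound to MILI or MIWI, are not used here.

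Testicular macrophages live between the seminiferous tubules beside the steroid-producing Leydig cells, and around the tubules near the spermatogonia. They depend on CSF1 acting on the receptor CSF1R. MHC class I proteins sit on nearly all somatic cells and display peptides made inside the cell, whereas class II proteins are largely confined to macrophages, dendritic cells and B cells and display peptides that these cells have taken up. The transactivator CIITA switches on the class II genes through conserved promoter elements, among them the X box and the Y box.

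The 30-base windows below hold the core of the Y box (ATTGG, in capitals) or of the X box (AGCAAC, in capitals) in promoters of some members of the presentation groups, and are shown because these genes are compared as a group below. They were read from RefSeq promoters of the GRCm38.p6 assembly (250 bases before to 50 after the start of the gene), written 5′ to 3′ on the strand of the gene. The deposited values refer to GRCm39, so these coordinates belong to GRCm38 alone.
*H2-Aa*, Y box core, chr17:34287854-34287883, reverse strand: gagaattttctgATTGGttctggcgagttt
*H2-Eb1*, Y box core, chr17:34305796-34305825, forward strand: cctttgatgctgATTGGctcccagcactgg
*H2-Eb1*, X box core, chr17:34305763-34305792, forward strand: gaatctctaactAGCAACtgatgatgctgg
*H2-D1*, Y box core, chr17:35263006-35263035, forward strand: ggtctcactatcATTGGgtggcgagattcc
*H2-K1*, Y box core, chr17:34000346-34000375, reverse strand: gctcttacccccATTGGgtggcgcgatcac

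Of the 10 genes of MHC presentation, 7 had a promoter entry and 6 of these held ATTGG on either strand, compared with 6 of 17 among the other members with an entry and with 37.4% of 32851 promoters. AGCAAC was found in 1 of the 7 (*H2-Eb1*) and in 3 of the 17, and in 14.8% of all promoters. *Cd74*, *Ciita* and *H2-Ab1* had no entry. The 2 motifs do not overlap in sequence, and a match is a description of the letters only.

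The libraries held roughly 41.1 to 61.6 M reads, at which 3 reads correspond to between 2.73 and 3.63 of the deposited normalized counts (counting error only). The members ranged from 7.21 normalized counts (*Ciita*) to 8136 (*H2-K1*), so that every member was above that floor in every library. The *10xBulge* libraries stood apart from the others in their level of spermatid RNA. The summed level of 12 spermatid genes was between 603926 and 839766 normalized counts in WT, between 728405 and 794641 in *10xPerf*, and 3155 in N5 and 1522 in N6. All values below are relative to the RNA of a library, and in whole tissue more cells of a type and more RNA per cell cannot be told apart.

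Most macrophage and antigen presentation genes were higher in *10xBulge* testes than in WT. At an adjusted p under 0.1 (limma on log2(value + 1), Benjamini-Hochberg adjustment over all 23782 genes), 20 of the 32 rose, *Aif1* fell and 11 were not called. Over all genes tested, 11.4% were called higher and 23.0% lower. Both *10xBulge* libraries lay above both WT libraries for 28 of the 32 members and below them for *Aif1* alone, whereas 28.9% of all genes were so placed above and 33.2% below. The median log2 fold change of the members was 1.29, and that of all genes was -0.026. At an unadjusted p under 0.05, 24 members differed, and the share of all genes at that p is not given here. Fewer members were called higher without N1, N2, N3, N4 or N5, and fewer genes over all genes tested. N3 and N4 enter this comparison only through the shared estimate of the spread. The median of the members was 1.29 without either of them, 1.18 without N1, 1.29 without N2, 1.12 without N5 and 1.53 without N6. *Adgre1*, *Lyz2*, *Laptm5* and *Ctss* stayed higher and *Aif1* lower under all 16 alternatives tried, whereas the median stayed between 1.12 (without N5) and 1.67 (scaling by library totals).

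**Figure D1:**
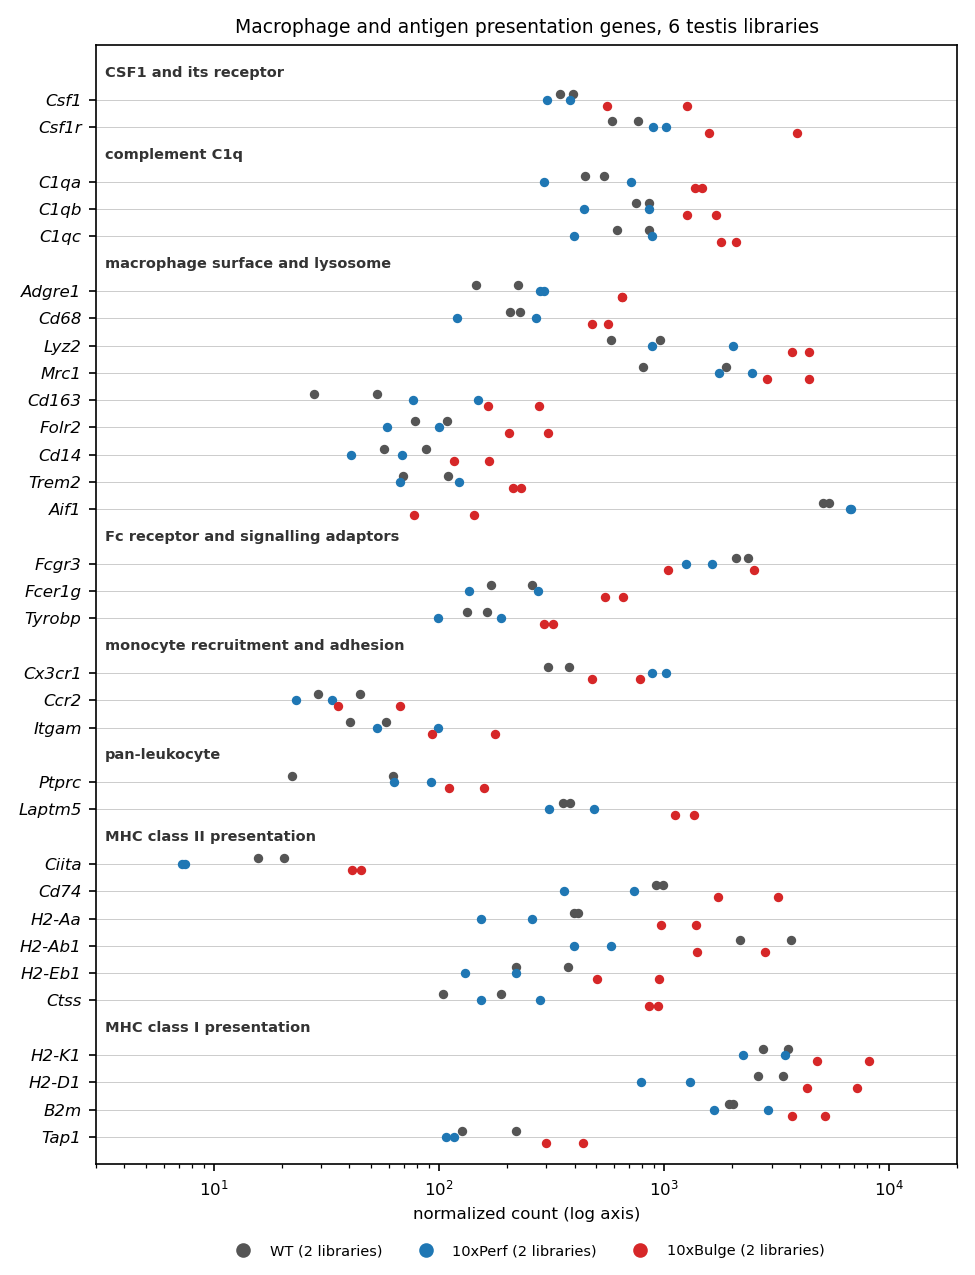
Normalized counts (log axis) of the 32 members, in rows grouped by role, in the 2 WT (grey), 2 *10xPerf* (blue) and 2 *10xBulge* (red) libraries, each point being 1 library. The *10xBulge* points lie to the right of both WT points for 28 members, and *Aif1* shows the opposite order.

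*Csf1* and *Csf1r* encode the growth factor of macrophages and its receptor, and both rose in *10xBulge*. *Csf1r* had 766 and 584 normalized counts in WT, 896 and 1018 in *10xPerf*, and 3899 and 1584 in *10xBulge*. N5 was far above N6, yet both exceeded the 4 other libraries (log2 fold change 1.89, SE 0.49, limma adjusted p = 0.0195). *Csf1* had 392 and 345 normalized counts in WT, 383 and 302 in *10xPerf*, and 1261 and 559 in *10xBulge*. The *10xBulge* libraries were again the highest (log2 fold change 1.19, SE 0.47, limma adjusted p = 0.0974), but the call was lost in 11 of 16 alternatives and N6 differed from N1 by less than N5 differed from N6. *Csf1* is made by other cells of a tissue as well, so its level is no measure of macrophages.

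The C1q subunits A, B and C form the recognition molecule of the classical complement pathway, which tissue macrophages produce. *C1qa* had 446 and 539.8 normalized counts in WT, 294 and 712 in *10xPerf*, and 1472 and 1373 in *10xBulge* (log2 fold change 1.53, SE 0.48, limma adjusted p = 0.0446). For *C1qc* the values were 619 and 861 normalized counts in WT, 398 and 883 in *10xPerf*, and 2086 and 1793 in *10xBulge* (log2 fold change 1.40, SE 0.47, limma adjusted p = 0.0568). Both genes rose, and N5 and N6 were close to each other. *C1qb* had 857 and 749 normalized counts in WT, 439 and 856 in *10xPerf*, and 1699 and 1269.5 in *10xBulge*. The log2 fold change of 0.87 (SE 0.44, 95% confidence interval -0.13 to 1.87) was not past the threshold (limma adjusted p = 0.18). In all 3 genes the *10xBulge* libraries lay above the 4 others, and the *10xPerf* libraries lay on both sides of at least 1 WT library.

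Of the 9 surface and lysosomal genes, 7 rose, *Aif1* fell and *Cd14* was not called. *Lyz2*, the lysozyme of macrophages and other myeloid cells, had 583 and 962 normalized counts in WT, 885 and 2015 in *10xPerf*, and 4395 and 3715 in *10xBulge*. It rose 5.39-fold on the fitted scale (log2 fold change 2.43, SE 0.49, limma adjusted p = 0.00578). *Adgre1*, which encodes the macrophage surface protein F4/80, had 224 and 145 normalized counts in WT, 280.0 and 294 in *10xPerf*, and 647 and 647 in *10xBulge*, and the *10xBulge* libraries were almost equal (log2 fold change 1.84, SE 0.41, limma adjusted p = 0.0101). *Cd68*, a lysosomal membrane protein gene, had 208 and 229 normalized counts in WT, 120.0 and 269 in *10xPerf*, and 561 and 479.8 in *10xBulge* (log2 fold change 1.25, SE 0.48, limma adjusted p = 0.0871).

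Scavenger and mannose receptors that mark resident tissue macrophages were among the 7. *Cd163*, the receptor for haptoglobin-hemoglobin complexes, had 27.7 and 53.1 normalized counts in WT, 76.8 and 149 in *10xPerf*, and 278 and 165 in *10xBulge*. The rise in *10xBulge* (log2 fold change 2.45, SE 0.56, limma adjusted p = 0.0111) was accompanied by *10xPerf* libraries that also lay above both WT libraries. *Mrc1*, the mannose receptor gene, had 804 and 1891 normalized counts in WT, 1753 and 2450.5 in *10xPerf*, and 4411 and 2876 in *10xBulge*. The WT libraries differed by more than N2 differed from N6 on the log2 scale, and the call (log2 fold change 1.53, SE 0.50, limma adjusted p = 0.0516) was lost in 6 of 16 alternatives. *Folr2*, a folate receptor gene of resident macrophages, had 108 and 78.6 normalized counts in WT, 58.6 and 99.95 in *10xPerf*, and 305 and 204 in *10xBulge* (log2 fold change 1.42, SE 0.49, limma adjusted p = 0.061). *Trem2*, a lipid-sensing receptor gene, had 68.9 and 110.2 normalized counts in WT, 67.4 and 123 in *10xPerf*, and 232 and 214 in *10xBulge* (log2 fold change 1.34, SE 0.49, limma adjusted p = 0.0753), with both *10xBulge* libraries above the other 4.

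*Cd14*, the coreceptor for bacterial lipopolysaccharide, had 87.9 and 56.8 normalized counts in WT, 40.5 and 68.4 in *10xPerf*, and 166 and 117 in *10xBulge*. Both *10xBulge* libraries lay above all WT and *10xPerf* libraries, but the log2 fold change of 0.97 against WT (SE 0.51, 95% confidence interval -0.18 to 2.12) was not past the threshold (limma adjusted p = 0.193).

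*Aif1*, which encodes the actin-binding protein IBA1 and is a standard stain for macrophages, went the other way. It had 5411 and 5074 normalized counts in WT, 6714 and 6758 in *10xPerf*, and 144 and 77.6 in *10xBulge*. The *10xBulge* mean of 110.7 ± 46.7 (SD, n = 2) was 47.4-fold below the WT mean of 5243 ± 238 (SD, n = 2), and no library overlapped (log2 fold change -5.62, SE 0.42, limma adjusted p = 1.5e-05). In WT it was the highest member per length, at 5992 normalized counts per kb of its longest annotated transcript, ahead of *H2-Ab1* at 2409. The ratio of *Aif1* to *Csf1r* was between 6.64 and 8.68 in the WT and *10xPerf* libraries, and 0.037 in N5 and 0.049 in N6. All 12 spermatid genes fell beside it in *10xBulge* (median log2 fold change -7.31), for example *Tnp1*, a transition protein gene, from a mean of 20621 to 20.9 normalized counts (log2 fold change -9.89, SE 0.43, limma adjusted p = 3.77e-06). The part of spermatid RNA in the *Aif1* value was not tested.

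FcγRIII and the adaptors FcRγ and DAP12 carry signals from antibody-coated particles and from activating receptors. *Fcer1g*, the gene of FcRγ, had 171 and 259.9 normalized counts in WT, 137 and 275 in *10xPerf*, and 657 and 544 in *10xBulge*, and rose in *10xBulge* (log2 fold change 1.50, SE 0.48, limma adjusted p = 0.0477). *Tyrobp*, the gene of DAP12, had 133 and 164 normalized counts in WT, 98.8 and 188 in *10xPerf*, and 293 and 319 in *10xBulge* (log2 fold change 1.05, SE 0.46, 95% confidence interval 0.01 to 2.09, limma adjusted p = 0.128). Neither WT nor *10xPerf* libraries reached the *10xBulge* ones in either adaptor. *Fcgr3* had 2352 and 2085 normalized counts in WT, 1253 and 1633 in *10xPerf*, and 2514 and 1044 in *10xBulge*. The groups overlapped, and the difference between *10xBulge* and WT was not larger than the spread between replicates (log2 fold change -0.45, SE 0.48, 95% confidence interval -1.53 to 0.63, limma adjusted p = 0.527), with a change of sign to 0.18 without N6. Per *Fcer1g*, *Fcgr3* stood at 13.8 in N1 and 8.02 in N2, at 9.17 and 5.95 in *10xPerf*, and at 3.83 in N5 and 1.92 in N6.

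Of the 3 genes of monocyte recruitment and adhesion 1 rose in *10xBulge*, and their median log2 fold change was 0.85. *Ccr2*, the chemokine receptor by which inflammatory monocytes leave the marrow, had 28.9 and 44.8 normalized counts in WT, 23.1 and 33.6 in *10xPerf*, and 35.6 and 67.3 in *10xBulge*. The libraries of the genotypes overlapped (log2 fold change 0.44, SE 0.57, 95% confidence interval -0.85 to 1.72, limma adjusted p = 0.616), and the sign turned (-0.015) without N6. *Itgam*, the integrin αM gene, had 40.2 and 58.4 normalized counts in WT, 53.2 and 99.4 in *10xPerf*, and 177 and 92.8 in *10xBulge* (log2 fold change 1.39, SE 0.55, limma adjusted p = 0.0959), a call that was lost in 11 of 16 alternatives. *Cx3cr1*, the fractalkine receptor gene, had 304 and 378 normalized counts in WT, 883 and 1020.3 in *10xPerf*, and 779.5 and 480.1 in *10xBulge*. It was above WT in all 4 knock-in libraries and highest in *10xPerf*, without passing the threshold in *10xBulge* (log2 fold change 0.85, SE 0.42, 95% confidence interval -0.09 to 1.79, limma adjusted p = 0.165).

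Both genes of all leukocytes rose. *Laptm5*, a lysosomal protein gene of hematopoietic cells, had 383 and 356 normalized counts in WT, 309 and 489 in *10xPerf*, and 1363 and 1112 in *10xBulge* (log2 fold change 1.74, SE 0.41, limma adjusted p = 0.0131). *Ptprc*, the gene of the common leukocyte antigen CD45, had 22.3 and 62.4 normalized counts in WT, 63.0 and 92.5 in *10xPerf*, and 111 and 159 in *10xBulge* (log2 fold change 1.80, SE 0.59, limma adjusted p = 0.0519). In *Ptprc* the WT libraries differed by more on the log2 scale than the *10xBulge* libraries did, and 6 of 16 alternatives lost the call.

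Of the 6 class II genes, 4 rose in *10xBulge*, and the median log2 fold change was 1.29. *Ctss*, the protease that clears the invariant chain from class II molecules, had 104 and 189 normalized counts in WT, 154 and 282 in *10xPerf*, and 944 and 861 in *10xBulge*. This was the highest fitted rise among the members (log2 fold change 2.67, SE 0.48, limma adjusted p = 0.00299). *Cd74*, the invariant chain gene, had 985 and 918 normalized counts in WT, 360.0 and 734 in *10xPerf*, and 3207 and 1729 in *10xBulge* (log2 fold change 1.31, SE 0.48, limma adjusted p = 0.0789). *H2-Aa*, the α chain gene of the A molecule, had 399 and 417 normalized counts in WT, 154 and 259.5 in *10xPerf*, and 1384 and 966 in *10xBulge* (log2 fold change 1.50, SE 0.43, limma adjusted p = 0.0322), with both *10xBulge* libraries above the other 4. *H2-Eb1*, the β chain gene of the E molecule, had 376 and 220.1 normalized counts in WT, 131 and 221 in *10xPerf*, and 947 and 505 in *10xBulge* (log2 fold change 1.26, SE 0.51, limma adjusted p = 0.0985), and 11 of 16 alternatives lost that call.

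*Ciita*, the lowest member, had 15.7 and 20.5 normalized counts in WT, 7.45 and 7.21 in *10xPerf*, and 40.9 and 44.9 in *10xBulge*. The 3 genotypes were fully separated, but the difference between *10xBulge* and WT was not past the threshold (log2 fold change 1.21, SE 0.57, 95% confidence interval -0.07 to 2.50, limma adjusted p = 0.15). *H2-Ab1*, the β chain gene of the A molecule, had 3655 and 2184 normalized counts in WT, 399 and 583 in *10xPerf*, and 2806 and 1396 in *10xBulge*. The *10xBulge* and WT libraries overlapped (log2 fold change -0.51, SE 0.48, 95% confidence interval -1.61 to 0.58, limma adjusted p = 0.471). The products of *H2-Aa* and *H2-Ab1* pair with each other, and the ratio of *H2-Ab1* to *H2-Aa* was 9.15 in N1 and 5.24 in N2, 2.59 and 2.25 in *10xPerf*, and 2.03 and 1.45 in *10xBulge*.

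Of the 4 class I genes, only *B2m* passed the threshold, although both *10xBulge* libraries were above both WT libraries in all 4. *B2m*, which encodes the light chain of class I molecules, had 1947 and 2033 normalized counts in WT, 1674 and 2894 in *10xPerf*, and 5168 and 3709 in *10xBulge* (log2 fold change 1.14, SE 0.42, limma adjusted p = 0.0791). *H2-K1* had 3539.9 and 2741 normalized counts in WT, 2248 and 3455 in *10xPerf*, and 8136 and 4768 in *10xBulge* (log2 fold change 1.00, SE 0.44, 95% confidence interval 0.01 to 1.99, limma adjusted p = 0.128). *H2-D1* had 3389 and 2624 normalized counts in WT, 787 and 1298 in *10xPerf*, and 7178 and 4318 in *10xBulge* (log2 fold change 0.90, SE 0.44, 95% confidence interval -0.10 to 1.90, limma adjusted p = 0.169). These heavy chain genes are close relatives of each other and of the *H2-Q* and *H2-T* genes, so that reads can be shared between them and the value of each is uncertain. *Tap1*, a subunit of the peptide transporter, had 219 and 127 normalized counts in WT, 116 and 107 in *10xPerf*, and 434 and 299.8 in *10xBulge* (log2 fold change 1.11, SE 0.46, 95% confidence interval 0.07 to 2.14, limma adjusted p = 0.108).

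**Figure D2:**
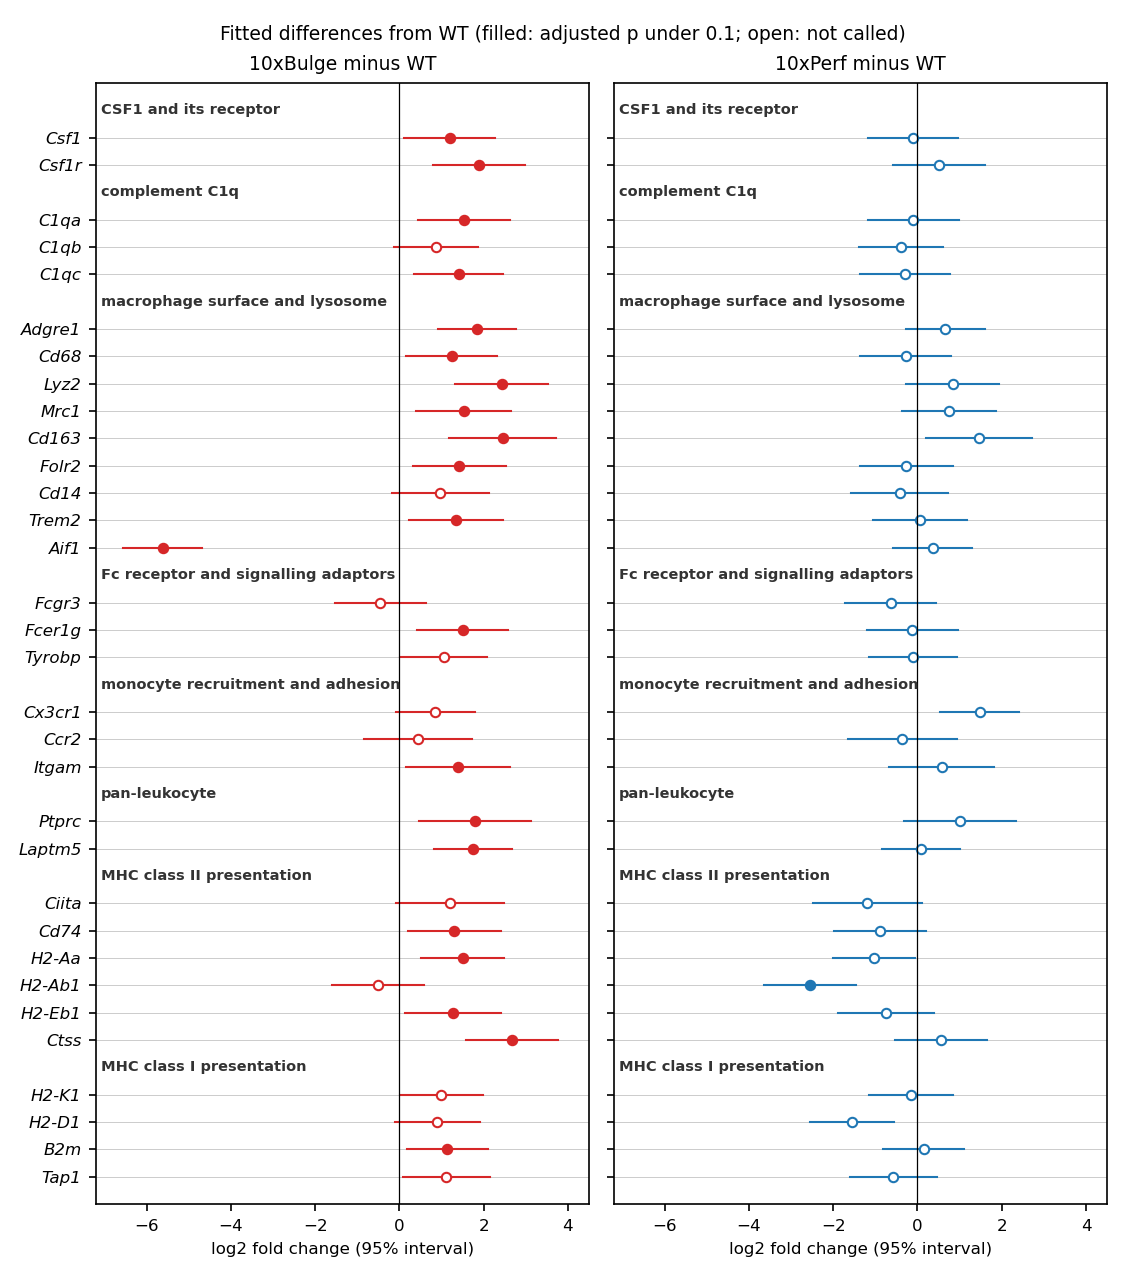
Fitted log2 fold changes of the 32 members with 95% confidence intervals for *10xBulge* minus WT (left, red) and *10xPerf* minus WT (right, blue), filled where the adjusted p was under 0.1. On the left 20 members are filled above 0 and *Aif1* below it, and on the right only *H2-Ab1* is filled.

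The *10xPerf* line gave a different picture. Against WT no member rose, *H2-Ab1* fell and 31 were not called, beside 0.467% of all genes called higher and 0.492% lower. At an unadjusted p under 0.05, 5 members differed, and the share of all genes at that p is not given here, so no excess can be read from this count. The median log2 fold change was -0.12, and that of all genes 0.018. Both *10xPerf* libraries lay above both WT libraries for 6 members and below them for 7, compared with 20.2% and 19.8% of all genes. *H2-Ab1* fell from a mean of 2919 ± 1040 (SD, n = 2) in WT to 491 ± 130 (SD, n = 2) in *10xPerf* (log2 fold change -2.55, SE 0.48, limma adjusted p = 0.0683), a call lost in 8 of 16 alternatives, among them the omission of N1, N2, N3 or N4. The other 4 members with an unadjusted p under 0.05 were *Cx3cr1* (log2 fold change 1.48, limma adjusted p = 0.313) and *Cd163* (1.45, adjusted p = 0.695), which were higher in both *10xPerf* libraries, and *H2-D1* (-1.56, adjusted p = 0.326) and *H2-Aa* (-1.03, adjusted p = 0.782), which were lower in both. Outside the MHC groups the median was -0.020 over 22 members, and in the MHC groups it was -0.82 over 10, with 6 of the 10 below both WT libraries.

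The direct comparison of the lines shares its *10xBulge* and *10xPerf* libraries with the comparisons above. Against *10xPerf*, 23 members were higher in *10xBulge* and *Aif1* was lower, with 12.9% of all genes called higher and 24.1% lower. Both *10xBulge* libraries lay above both *10xPerf* libraries for 28 members and below them for 2, *Aif1* and *Cx3cr1*, beside 30.7% and 35.3% of all genes. The median of the members was 1.38 and that of all genes -0.067. Of the 10 genes of MHC presentation 9 were higher, with a median of 2.07, and the tenth, *B2m*, had a log2 fold change of 0.99 (SE 0.42, 95% confidence interval 0.04 to 1.95, limma adjusted p = 0.112). All 6 class II genes were higher. *H2-Aa* differed by 2.53 on the log2 scale (SE 0.43, limma adjusted p = 0.00208), *Ciita* by 2.40 (SE 0.57, limma adjusted p = 0.0128) and *H2-Ab1* by 2.04 (SE 0.48, limma adjusted p = 0.0129). Outside these groups 14 of 22 members were higher, for example *C1qc* by 1.70 (SE 0.47, limma adjusted p = 0.0254) and *Laptm5* by 1.66 (SE 0.41, limma adjusted p = 0.0155), while none of the 3 monocyte genes was called (*Cx3cr1* -0.63, *Ccr2* 0.79 and *Itgam* 0.81). N3 was below N4 for 29 of the 32 members. Without N3 the median of the members was 1.01, and without N5 it was 1.23. Fewer members were called higher in both of these fits, and fewer genes over all genes tested.

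*H2-Ea*, the α chain gene of the class II E molecule, is silent in mice of the MHC haplotype b, such as C57BL/6, and transcribed in haplotype d, such as DBA/2, and these are the parent strains of B6D2F1/J. It had 72.3 and 60.1 normalized counts in WT, 0 and 2.96 in *10xPerf*, and 387.5 and 288 in *10xBulge*. The *10xPerf* values were at or under the worth of 3 reads, so no fold is given against them (limma adjusted p = 0.0139 for *10xPerf* against WT and 4.73e-05 for *10xBulge* against *10xPerf*). *10xBulge* was above WT (log2 fold change 2.32, SE 0.69, limma adjusted p = 0.0368). The MHC haplotype of the mice is not in the labels, and its part in the differences of *H2-Ab1*, *H2-D1* and the other MHC genes was not tested.

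The 26 genes with an *H2-* symbol that passed the filter were examined as a group after these values were seen. In *10xPerf* against WT 6 were lower and none higher (over all genes tested, 0.492% were lower), and 16 had both *10xPerf* libraries below both WT libraries (19.8% of all genes). *H2-K2*, a transcribed pseudogene named here for its values, had 155 and 127 normalized counts in WT, 1.00 and 0.989 in *10xPerf*, and 320 and 156 in *10xBulge*. The ratio of *H2-D1* to *H2-K1* was 0.957 in both WT libraries, 0.350 and 0.376 in *10xPerf*, and 0.882 and 0.906 in *10xBulge*. That of *H2-K1* to *B2m* was between 1.19 and 1.82 in all 6 libraries. The ratio of *H2-D1* to *H2-K1* was thus lower in both *10xPerf* libraries than in the other 4, a comparison within libraries that no scaling touches, while the possible sharing of reads between these genes was not tested.

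**Figure D3:**
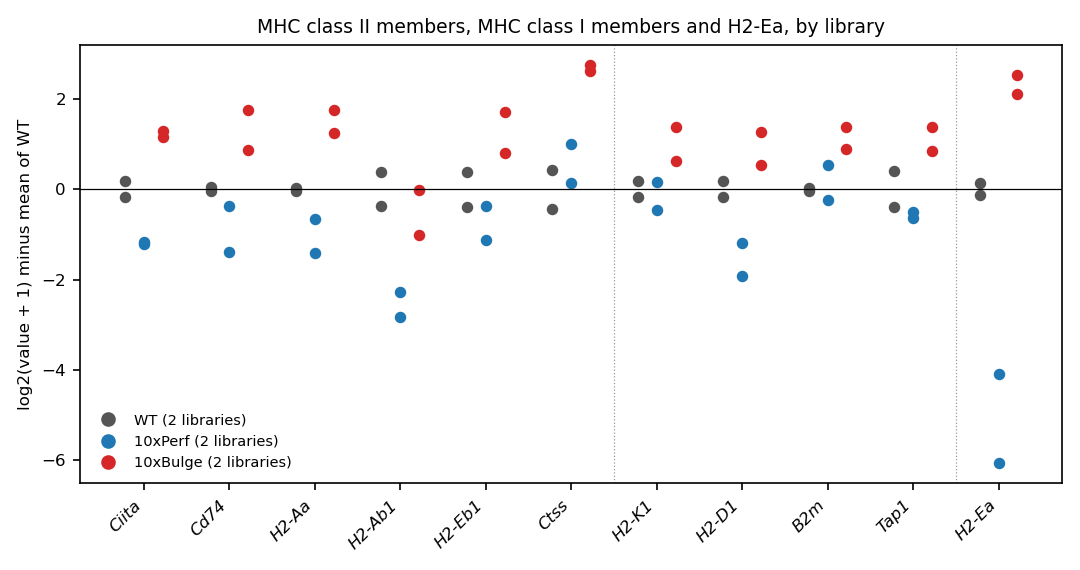
Levels of the 6 MHC class II members, the 4 class I members and *H2-Ea* in each library (1 point per library), as log2(value + 1) minus the mean of the 2 WT libraries. The *10xPerf* points of *Ciita*, *Cd74*, *H2-Aa*, *H2-Ab1*, *H2-D1*, *Tap1* and *H2-Ea* lie below all others of the gene. *H2-Ea* is at or under 3 reads there. The *10xBulge* points lie above WT for each gene but *H2-Ab1*.

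Other genes of the same pathways, which are no members, moved in the same main direction in *10xBulge*. Of 44 further macrophage genes 42 were tested, and 20 were higher and 1 lower than in WT (median log2 fold change 1.39). The smallest p among the risen genes belonged to *Itgax*, the integrin αX gene, which rose from a mean of 18.3 to 236.6 normalized counts (log2 fold change 3.57, SE 0.55, limma adjusted p = 0.00109). The fallen gene was *Msr1*, a scavenger receptor gene, which went from 226.7 to 53.2 (log2 fold change -2.09, SE 0.50, limma adjusted p = 0.0136). Of 31 further presentation genes 29 were tested, and 9 were higher and 2 lower (median 0.87). Here *Erap1*, a peptide-trimming protease gene, had the smallest p among the risen genes (260.4 to 1553, log2 fold change 3.03, SE 0.70, limma adjusted p = 0.0118) and *H2-DMa*, a chaperone of class II loading, among the fallen (1026 to 291, log2 fold change -1.81, SE 0.38, limma adjusted p = 0.00668). The other fallen presentation gene was *Nlrc5*, the class I transactivator gene. In *10xPerf* 1 of the 42 macrophage genes, *Spp1*, was higher and 2 of the 29 presentation genes, *H2-Ea* and *H2-Ob*, were lower. *Nlrc5*, *Spp1* and *H2-Ob*, and *Mpo*, *Elane*, *S100a8*, *S100a9*, *Cd247* and *Dcn* below, are named because of their values.

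Among markers of other leukocytes, the 2 neutrophil genes that passed the filter rose from low levels, and no gene of lymphocytes was called higher. *Mpo* had 25.5 and 49.4 normalized counts in WT, 129 and 190 in *10xPerf*, and 125 and 105 in *10xBulge*, so its rise was not particular to *10xBulge*. *Elane*, under the filter, went the other way, with 3.65 and 4.65 in WT and 0 in both *10xBulge* libraries. *S100a8* and *S100a9* were at most 2.94 and 0.92 in any library. Of the 7 neutrophil genes, *Ly6g* and *Retnlg* were at 0 in all libraries and 2 passed the filter, and both of these, *Mpo* and *Csf3r*, rose in *10xBulge*, the receptor gene *Csf3r* with the smaller p (27.4 to 116.8 normalized counts, log2 fold change 2.05, SE 0.51, limma adjusted p = 0.0178). The summed level of the list was 59.7 to 81.1 normalized counts in WT, 163 to 248 in *10xPerf* and 208 to 259.6 in *10xBulge*. None of the T cell, B cell, mast cell, dendritic cell or red blood cell genes rose. *Cd3d* (400.02 to 18.9, limma adjusted p = 8.92e-05) and *Cd247* fell among 6 T cell genes, as did *Pax5* (786 to 7.62, limma adjusted p = 0.000125) among 4 B cell genes, shares near the 23.0% of all genes that fell. The T cell list summed to 704 to 892 normalized counts in WT and 327 to 565 in *10xBulge*, and the B cell list to 710.0 to 1093 and 152 to 199.9. These sums include the fallen genes. The log2 fold change was above 0, without a call, for 4 of the 6 T cell genes and 3 of the 4 B cell genes. The medians were 0.39 and 0.53, so the lower sums do not describe most genes of either list.

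Most Leydig and Sertoli cell genes tested rose beside the macrophage genes, and most peritubular and vessel genes were not called. In *10xBulge* 6 of 8 Leydig cell genes (median log2 fold change 1.77, smallest p for the steroidogenic *Hsd3b1*, limma adjusted p = 0.00745), 8 of 12 Sertoli cell genes (1.13, *Fshr*, 0.0113) and 2 of 11 peritubular and vessel genes (0.41, *Pdgfra*, 0.0109, and *Dcn*) were higher and none lower. Of the germ cell lists, 1 of 16 spermatocyte genes was higher (median 0.028, *Dmc1*, 0.0446), and of 10 spermatogonial genes *Kit* was higher (0.0127) and *Nanos3* lower (0.0577), with a median of 0.58. Of the 8 genes of the epididymis list only 2 passed the filter, and *Lcn5* was at 0 in all libraries. Of these 2, *Cst8* fell (3874 to 169, limma adjusted p = 3.13e-05) and the other was not called.

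Within a library the level of the macrophage members (without *Aif1* and the MHC groups, median log2(value + 1)) was 7.81 and 8.03 in WT, 8.13 and 8.20 in *10xPerf*, and 9.36 and 9.09 in *10xBulge*. Minus the Leydig cell median of the library it was -3.35 and -4.21 in WT, -3.47 and -4.34 in *10xPerf*, and -5.04 and -4.21 in *10xBulge*. Minus the Sertoli cell median it was -3.06 and -3.08 in WT, -2.48 and -3.03 in *10xPerf*, and -3.09 and -2.62 in *10xBulge*. Relative to these somatic cells the *10xBulge* libraries were therefore not both above WT. Relative to spermatocyte genes they were, with -3.28 and -4.31 in WT, -4.25 and -3.87 in *10xPerf*, and -1.58 and -2.61 in *10xBulge*. Relative to peritubular and vessel genes the libraries of both knock-in lines lay above WT, with -1.44 and -1.22 in WT, -0.61 and -0.36 in *10xPerf*, and -0.36 and -0.17 in *10xBulge*. The class II median was 8.60 and 8.25 in WT, 7.27 and 8.08 in *10xPerf*, and 10.16 and 9.83 in *10xBulge*. Minus the macrophage median it was 0.79 and 0.22 in WT, -0.86 and -0.12 in *10xPerf*, and 0.80 and 0.74 in *10xBulge*. This separation of WT from *10xPerf* by the median was lost without *H2-Ab1*. As single genes, *Ciita*, *Cd74* and *H2-Aa* were also lower in both *10xPerf* libraries than in both WT libraries, as were 19.8% of all genes. None of these genes was called (limma adjusted p = 0.853, 0.853 and 0.782), and *H2-Eb1* and *Ctss* overlapped. Without *H2-Ab1* the class II median was 8.56 and 7.79 in WT, 7.27 and 8.03 in *10xPerf*, and 9.89 and 9.75 in *10xBulge*. N2 then lay below its macrophage median as both *10xPerf* libraries did.

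**Figure D4:**
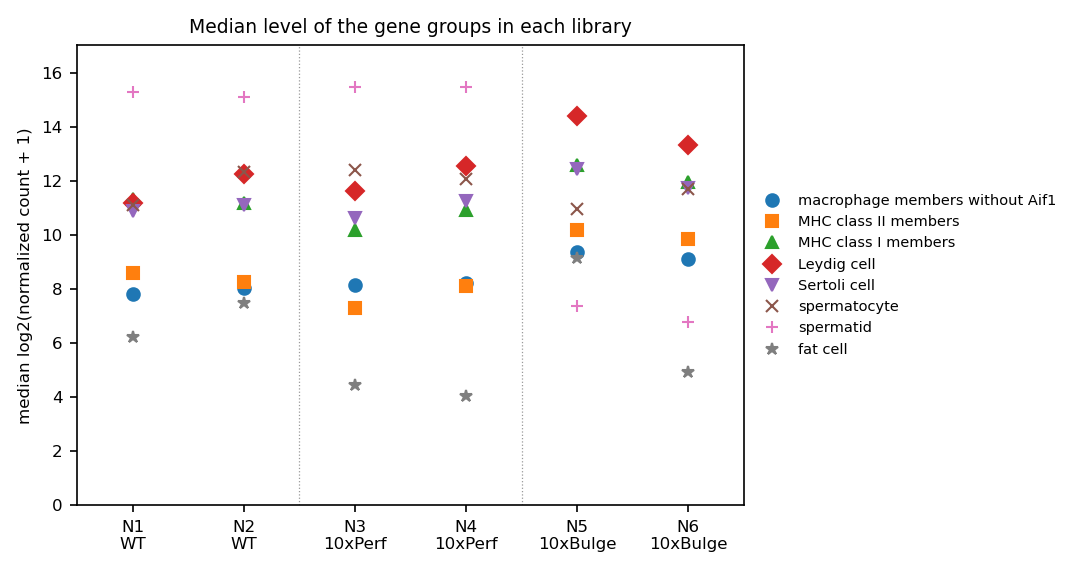
Median log2(normalized count + 1) of gene groups (symbols) in each of the 6 libraries, which are ordered by genotype. The spermatid median is 15.10 to 15.48 in WT and *10xPerf* and 7.37 and 6.76 in *10xBulge*, where the macrophage, MHC, Leydig and Sertoli medians are at their highest, and the fat cell median is high in N5 alone among the knock-in libraries.

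Replicates differed in ways that touch these values. N5 was above N6 for 28 of the 32 members, N4 above N3 for 29, and N2 above N1 for 17, and the median absolute log2 difference over the members was 0.42 between the WT libraries, 0.74 between the *10xPerf* libraries and 0.53 between the *10xBulge* libraries. Fat cell genes were high in N5: *Lep* had 639 normalized counts there and at most 45.1 in the other libraries, and *Cidec* 568 and at most 39.8. Their list summed to 2564 normalized counts in N5, 375 in N6, 702 and 959 in WT, and 315 and 527 in *10xPerf*, and *Adipoq* fell in *10xBulge* (402 to 111.9, log2 fold change -2.96, SE 1.06, limma adjusted p = 0.0694). The part of fat tissue in the values of N5 was not tested. Without N5 the members kept a median log2 fold change of 1.12 against WT, with fewer members and fewer of all genes called higher. Across the 32 members the difference between N1 and N2 went with transcript GC content (Spearman's rho = 0.48 over 32 genes that share the same libraries, a description only). A separate fit removed the trend of each library with GC content, estimated over all tested genes with a GC value. In that fit 24 members were higher in *10xBulge* than in WT.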

How the data were processed

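Adult whole testes gave total RNA that was depleted of ribosomal RNA and sequenced in 6 libraries, 2 for each of 3 genotypes. The authors assigned the reads to Ensembl transcripts of GRCm39 with salmon and its GC correction (versions are not given in the sources used here). The deposited unit is the normalized count from DESeq2, a signal and not a read number. Only 19.4% of the 34847 genes above 0 held whole multiples of the worth of 1 read within 0.01 reads, so reads were not recovered and no count test was run. The authors also deposited log2 fold changes and adjusted p-values of their own comparisons, which were not used.

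A gene entered the fit if 2 or more libraries had 10 or more. Values were taken as log2(value + 1), which understates changes of low genes, and fitted with limma 3.58.1 in R 4.3.3 over all 6 libraries, each genotype having its own mean and the variance prior following expression level. A gene was called at an adjusted p under 0.1, the threshold that the study used. The smallest p of an exact permutation test with 2 libraries in each group is 0.33. On simulated data for *10xBulge* against WT (23782 genes, 200 changed) 21% of genes changed by 2 and 77% of those changed by 4 on the log2 scale were recovered. With 6000 changed, 35.8% of those changed by 1 and 81.4% of those changed by 2 were recovered.

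The members and the lists were chosen with earlier results of these data known. All members are named, each with 6 values and its fold change, standard error and adjusted p in *10xBulge* against WT, and in the other contrasts where past the threshold or as stated. Of the other lists, counts and the gene of smallest p in each direction are given, and *H2-Ea*. The alternatives were other scalings, filters and pseudocounts, a stricter threshold, the 2 genotypes alone, no trend, removal of the trend of a library with GC content (loess, span 0.3, GRCm38 transcripts), and the omission of each library. GRCm38 also gave transcript lengths. Other steps used Python 3.11.15 with scipy 1.17.1, and figures used matplotlib 3.10.9.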

Additional observations from a re-analysis of the deposited data

Results flagged for a closer look

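For 6 members the libraries of both knock-in lines lay on opposite sides of WT, and *10xBulge* and *10xPerf* differed past the threshold in limma. The share of all genes that met this rule is not given here, so whether 6 members are many cannot be told. *Aif1* was above WT in both *10xPerf* libraries and below it in both *10xBulge* libraries (log2 difference between the lines -5.98). The 5 others belong to MHC presentation and were below WT in both *10xPerf* libraries and above it in both *10xBulge* libraries. Their log2 differences between the lines were 2.53 for *H2-Aa*, 2.46 for *H2-D1*, 2.40 for *Ciita*, 2.19 for *Cd74* and 1.68 for *Tap1*. Of these 6 genes, *Aif1* and *H2-Aa* were past the threshold in *10xBulge* against WT, as was *Cd74*, and none was in *10xPerf* against WT.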

How the results depend on the processing

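With 2 libraries per genotype, changes of 1 on the log2 scale are often missed. The 20 members higher in *10xBulge* than in WT became 11 in a fit of only these genotypes and 9 at an adjusted p under 0.05, and 5 to 21 when single libraries were omitted. Scaling by library totals gave 28, and moved the median of all genes from -0.026 to 0.36 and the calls over all genes from 2712 higher and 5466 lower to 5789 and 4745. Relative to *10xPerf*, the 23 members became 15 at an adjusted p under 0.05, and 3 to 21 when single libraries were omitted. The call of *H2-Ab1* in *10xPerf* against WT was lost (0 members lower) without the filter on low values (a value of 1 in 1 library sufficing), with a pseudocount of 0.1, without the mean-variance trend, at an adjusted p under 0.05, and in the range of 0 to 1 when single libraries were omitted. The median of the members in *10xPerf* against WT changed sign under scaling by library totals (0.017, with 0.15 for all genes) and under removal of the GC trend (0.075), and lay between -0.54 and 0.32 when single libraries were omitted. Of single members in *10xBulge* against WT, *Fcgr3* (-0.45) ranged from -1.08 to 0.18 and *Ccr2* (0.44) from -0.015 to 0.89. The causes were not tested. *Ciita* was not in the fit that required 10 in every library. The call of *Aif1* and the directions of the medians of *10xBulge* against WT and against *10xPerf* were kept under all 16 alternatives. Several of these could not move a median. They were the stricter threshold, the looser filter, the fit without the trend, the 2 genotypes alone and the omission of a library outside the comparison. No paired analysis was possible because the genotypes share no replicate numbers.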
